A study of Mus musculus with 4 samples.

Results

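Binding of the transcription factor SCL (TAL1) was examined at 6 genes that encode haematopoietic cytokine receptors, Kit, Epor, Csf1r, Csf3r, Csf2rb and Flt3. A peak was given to a receptor gene when its summit, the base with the most ChIP fragments, had a start of that gene as the nearest start of any protein-coding transcript. This gave 20 of the 12885 SCL peaks of the deposited list, or 0.155%. The study reports fewer SCL-bound loci than the list holds. Shares of all peaks here refer to the list and not to that set. Kit had 7 peaks, Csf3r had 5, Csf2rb had 4, Epor had 2, and Csf1r and Flt3 had 1 each.

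The chromatin came from mouse embryonic stem (ES) cells, which the methods of the study name as the wild-type line J1 and the labels give as strain C57Bl/6 X Sv129. They were differentiated as embryoid bodies (EBs) to day 3.5 and isolated with an antibody against the surface receptor FLK1. FLK1+ cells at this stage are mesoderm that can form blood and endothelium. The study describes some of them as also carrying the receptor PDGFRα and as having several mesodermal potentials. The libraries were made from genomic DNA. There were 2 SCL ChIP libraries, made with an in-house rabbit antiserum, and 2 input libraries without antibody, numbered 1 and 2. Cells were taken on magnetic beads for FLK1 and not for SCL, and a peak list holds no expression by which the cell type could be checked. Whether the numbered libraries came from separate cultures is not given in the sources used here. The list was called on the merged ChIP libraries against the merged inputs, so each peak has 1 value, no spread between replicates can be given, and no test between conditions was possible.

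The receptors fall into 2 classes. Kit, Csf1r and Flt3 are receptor tyrosine kinases with an immunoglobulin-like outer part, which bind stem cell factor, macrophage colony-stimulating factor and FLT3 ligand. Epor, Csf3r and Csf2rb lack a kinase of their own and signal through JAK kinases bound to their inner part. Epor binds erythropoietin and is needed for red cells, Csf3r binds granulocyte colony-stimulating factor, and Csf2rb is the shared signalling chain for GM-CSF, interleukin 3 and interleukin 5. SCL is a basic helix-loop-helix factor that binds DNA with an E protein, LMO2, LDB1 and a GATA factor, often where an E-box, or the letters CTG alone, lies a short way from a GATA site.

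To show the DNA under the peaks, the 101 bases centred on a summit are given for the 6 receptor peaks that held such a composite, CTG followed after 7 to 9 bases by GATA on either strand. Bases were read from the mm9 build (NCBIM37), on the strand of the gene and 5′ to 3′. Capitals mark GATA motifs on either strand, that is GATA with A or T before it and A or G after it, as in AGATAA, and the CTG and GATA of the composite. A composite on the other strand reads TATC followed by CAG. Numbers after a gene are kilobases from its nearest start, with minus for upstream.
Kit -141.8 kb, chr5:75829046-75829146, plus strand: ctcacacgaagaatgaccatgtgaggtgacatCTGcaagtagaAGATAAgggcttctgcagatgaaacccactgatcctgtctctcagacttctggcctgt
Kit -114.2 kb, chr5:75856679-75856779, plus strand: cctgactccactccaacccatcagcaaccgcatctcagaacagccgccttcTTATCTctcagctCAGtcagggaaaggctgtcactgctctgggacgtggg
Kit -45.7 kb, chr5:75925154-75925254, plus strand: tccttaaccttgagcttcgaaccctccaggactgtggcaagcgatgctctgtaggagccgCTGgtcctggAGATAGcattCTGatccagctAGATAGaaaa
Epor +0.9 kb, chr9:21767050-21767150, minus strand: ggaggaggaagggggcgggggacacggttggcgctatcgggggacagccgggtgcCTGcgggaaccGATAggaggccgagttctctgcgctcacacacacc
Csf3r -126.6 kb, chr4:125575106-125575206, plus strand: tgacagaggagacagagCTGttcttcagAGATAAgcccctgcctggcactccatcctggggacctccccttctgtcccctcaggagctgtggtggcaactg
Flt3 +11.7 kb, chr5:148200132-148200232, minus strand: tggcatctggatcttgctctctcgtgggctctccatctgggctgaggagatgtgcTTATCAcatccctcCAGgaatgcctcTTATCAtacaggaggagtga

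The gap between CTG and GATA was 9 bp at Kit -141.8 kb, at Csf3r -126.6 kb and at Flt3 +11.7 kb. It was 8 bp at Kit -114.2 kb and at Epor +0.9 kb. The window at Kit -45.7 kb held 2 composites in tandem, with gaps of 8 and 9 bp. In the Epor window the GATA of the composite is followed by G and preceded by C, so that it is not one of the GATA motifs above, and no other GATA motif lay within 100 bp of that summit.

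Kit, the stem cell factor receptor of blood progenitors, had the most peaks of the 6 receptors by nearest start with no limit on distance, and none of its 7 summits lay within the gene itself. Of the peaks nearest to a start and within 50 kb of it, Kit had 2 and Csf2rb had 4. Kit (ENSMUSG00000005672.6) occupies 75970941 to 76052747 of chromosome 5, on the plus strand. All 7 summits were intergenic, 5 upstream of the start and 2 beyond the 3′ end. At least 7 peaks were nearest to 0.783% of 22336 protein-coding genes, and at least 1 to 29.1%. These shares describe the list only, since the genes were chosen by name with results of these data known.

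The strongest Kit peak, at 75856356 to 75856885, was 114.2 kb upstream. Its fold enrichment was 34.5 (95% confidence interval 29.8 to 39.6). This is the number of fragments covering the summit, here 196, over the local background the caller expects there, here 4.72, each with 1 added by the peak caller. This interval and those of the folds below are exact Poisson intervals of the fragments, with the local background held fixed. They cover counting error of the fragments only and leave out any error of the background. The fold was above that of 87.5% of all peaks. The peak 141.8 kb upstream had a fold of 18.6 (15.0 to 23.0) and that 102.3 kb upstream 16.7 (13.0 to 21.0). The interval of the strongest Kit peak overlapped neither of these, while the intervals of the other pair overlapped each other.

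The remaining 4 Kit peaks were weaker. The fold was 8.71 (6.04 to 12.2) at 45.7 kb upstream and 9.21 (6.70 to 12.4) at 9.92 kb upstream. On the far side of the gene it was 7.26 (5.12 to 10.01) at 154.1 kb and 10.8 (7.74 to 14.6) at 187.1 kb from the start. All 4 lay below the list median of 11.1, and their intervals overlapped. The widest receptor peak was that at Kit -102.3 kb, with 971 bp, and its window held neither a GATA motif nor a composite.

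The other Kit windows each held a GATA motif. At -9.9 kb it lay 39.5 bp before the summit, beside 2 E-boxes, CAACTG and CATCTG. At +154.1 kb a TGATAA on the other strand lay 23.5 bp before a summit covered by 35 fragments, the peak of lowest fold of the 20. At +187.1 kb AGATAA and AGATAG overlapped each other 37.5 and 42.5 bp beyond the summit, with the Ets core AGGAAG 17.5 bp beyond it. The summits of the 4 Kit windows without a composite were covered by 35 to 68 fragments. Those with it were covered by 196 at Kit -114.2 kb, 86 at Kit -141.8 kb and 32 at Kit -45.7 kb, so the ranges overlapped.

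Kit lies between 2 other receptor tyrosine kinase genes, Pdgfra, for the platelet-derived growth factor receptor alpha, and Kdr, which encodes FLK1. The 2 peaks beyond the 3′ end of Kit were 249.3 and 216.4 kb from the nearest start of Kdr, the next protein-coding gene. The upstream peaks were between 276.9 and 408.8 kb from the start of Pdgfra. Kdr had 10 peaks by the same rule, of which the strongest, 16.1 kb downstream of its start, had a fold of 182.8 (171.9 to 194.2). Pdgfra had 1 peak, with a fold of 8.78 (6.34 to 11.9). The strongest Kit peak therefore stood between the strongest peaks of its neighbours, and the 3 intervals did not overlap. The cells had been isolated on the product of Kdr.

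**Figure D1:**
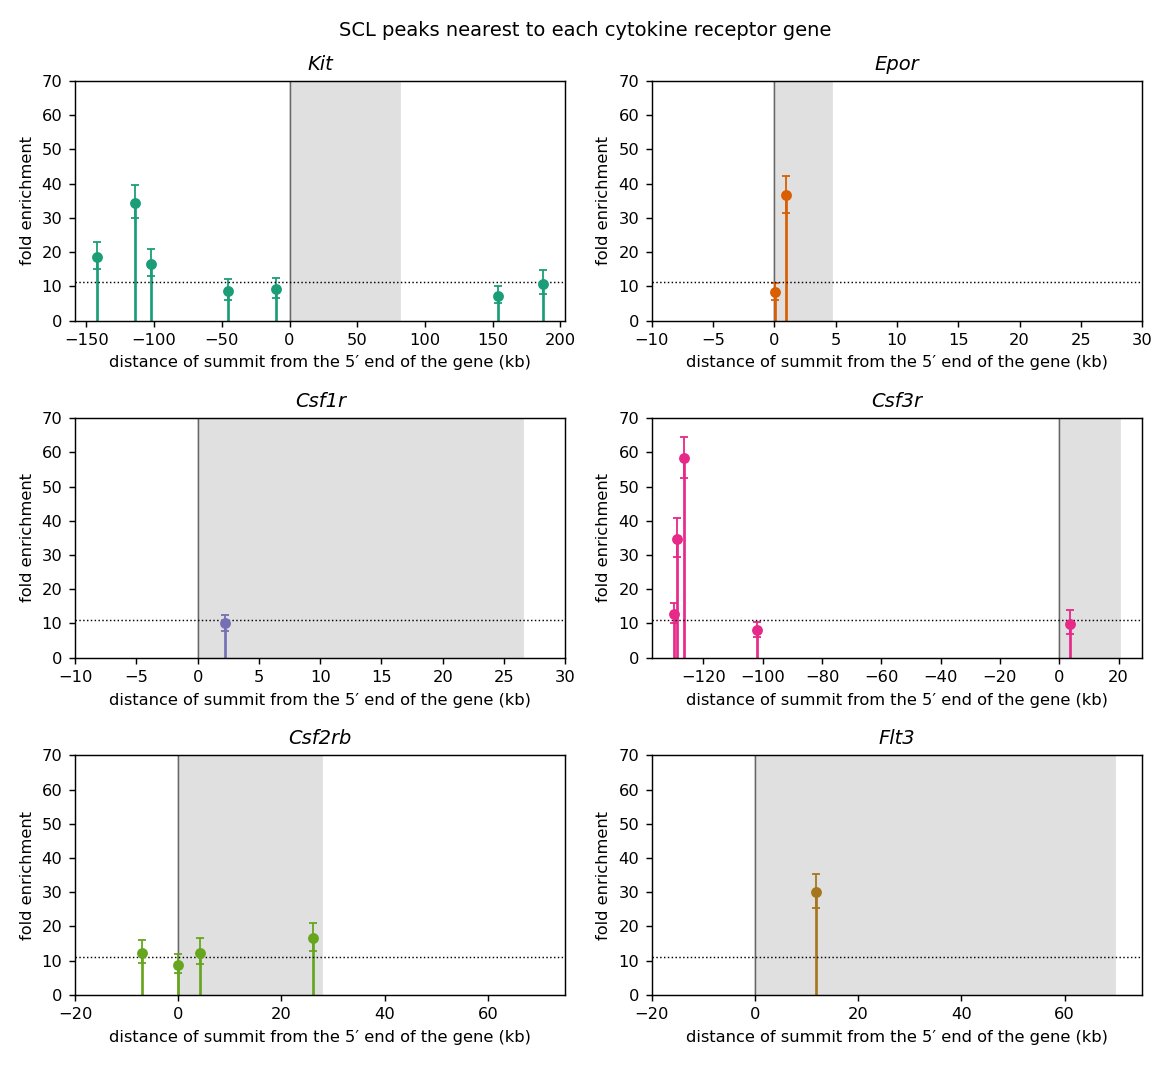
SCL peaks at the 6 receptor genes. Each point is a peak, at the distance of its summit from the 5′ end of the gene (x, kb, along the gene's strand) and its fold enrichment (y), with 95% Poisson intervals of the fragments. Grey marks the gene and the dotted line the median of the whole list, 11.1. Kit has its 7 peaks outside the gene, the 3 strongest between 102.3 and 141.8 kb upstream, and Csf3r has 3 peaks close together far upstream.

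Epor, the erythropoietin receptor, had 2 peaks 0.913 kb apart, at and just behind its start. They became 1 when peaks within 500 bp of each other were merged. Epor (ENSMUSG00000006235.5) is short, 21763343 to 21768020 of chromosome 9, on the minus strand. The stronger summit lay 920 bp downstream of the start, in intron 1 of 7, in a peak at 21766745 to 21767394. Its fold was 36.6 (31.4 to 42.4), from 175 fragments. The summit of the other peak, at 21767546 to 21768264, was 7 bp downstream of the start, in the UTR part of exon 1. Its fold was 8.22 (6.07 to 10.9), from 46 fragments, and the intervals of both peaks were far apart. The intronic peak held 79.2% of the fragments summed over both summits. The next protein-coding gene, 2310047B19Rik, started 6.90 kb from the intronic summit, and its own peak had a fold of 6.04 (4.41 to 8.08).

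Neither Epor window held a GATA motif, and both held CCNCNCCC. The window at the start also held 3 copies of CAGCTG, the E-box variant with GC in the middle, centred 15.5, 28.5 and 43.5 bp downstream of the start. The intronic window had none of these, but held the composite and AGGAAG, the Ets core. Upstream, a GATA motif and the run with CCNCNCCC, the letters bound by Krüppel-like and Sp factors, lay in the 100 bases before the start, given on the gene's strand with both in capitals.
Epor upstream of start, chr9:21768021-21768120, minus strand: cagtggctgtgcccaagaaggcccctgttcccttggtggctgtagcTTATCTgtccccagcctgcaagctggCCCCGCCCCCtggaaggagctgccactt

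Csf3r, the receptor of granulocyte colony-stimulating factor, had the strongest peak of all 6 genes, and it lay far from the gene. Csf3r (ENSMUSG00000028859.7) spans 125701794 to 125722219 of chromosome 4, on the plus strand. The peak at 125574797 to 125575438, 126.6 kb upstream, had a fold of 58.3 (52.5 to 64.6), from 363 fragments on a background of 5.24, and 94.5% of all peaks had a lower fold. A second peak at 125572605 to 125573030, 128.9 kb upstream, had a fold of 34.7 (29.3 to 40.9). The peak at 125571655 to 125572236, 129.9 kb upstream, had a fold of 12.8 (10.1 to 16.1). The intervals of these 3 neighbours did not overlap.

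The 3 summits lay within an annotated noncoding transcript, 2610028E06Rik, and were given to Csf3r because only protein-coding starts were used. With lincRNA and processed-transcript genes included, Csf3r kept 1 peak. Mrps15, a mitochondrial ribosomal protein gene, was the next protein-coding gene, 149.0 to 152.3 kb from the 3 summits and so only slightly further than Csf3r. Csf3r itself held 1 peak, at 125705275 to 125705533 in intron 3 of 16, with a fold of 9.90 (6.91 to 13.8). That summit was 871 bp from an internal start and 3.61 kb from the 5′ end of the gene. The fifth peak, 102.1 kb upstream, had a fold of 8.01 (5.97 to 10.5).

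The neighbouring upstream summits of Csf3r shared a GATA motif, AGATAA, but not the composite. The sequences of the weaker pair follow, to be set beside that at Csf3r -126.6 kb above. At -129.9 kb, AGATAA lay at the summit and AGATAG on the other strand 11.5 bp beyond it. At -128.9 kb, AGATAA lay 25.5 bp before the summit on the other strand.
Csf3r -129.9 kb, chr4:125571866-125571966, plus strand: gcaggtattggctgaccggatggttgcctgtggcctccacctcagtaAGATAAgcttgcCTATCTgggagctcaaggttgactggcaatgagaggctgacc
Csf3r -128.9 kb, chr4:125572802-125572902, plus strand: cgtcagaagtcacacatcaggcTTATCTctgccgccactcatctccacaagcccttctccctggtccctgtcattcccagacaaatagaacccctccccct

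Csf2rb, the beta chain shared by 3 cytokine receptors, had 4 peaks of moderate strength within and around the gene. Csf2rb (ENSMUSG00000071713.3) spans 78156420 to 78184277 of chromosome 15, on the plus strand. The peak at 78182150 to 78182842, in the last intron of a transcript with 13 and 26.1 kb downstream of the start, had the highest fold, 16.5 (12.8 to 21.0). The fold was 12.3 (9.20 to 16.1) at 78149242 to 78149631, 7.04 kb upstream, and 12.2 (8.86 to 16.5) at 78160375 to 78160826, in intron 1. It was 8.78 (6.34 to 11.9) at 78156157 to 78156746, where the summit lay in exon 1, 7 bp from the start. Of the 4 intervals, the highest and the lowest did not overlap each other, and all other pairs overlapped. At least 4 peaks were nearest to 3.58% of genes.

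The Csf2rb windows differed in their motifs. At the start, AGATAA was centred 34.5 bp downstream of the first base and AGGAAG, the Ets core, lay at both sides of the summit. At +26.1 kb TGATAA lay 12.5 bp beyond the summit, which was covered by 64 fragments. The windows at -7.0 and +4.1 kb, covered by 50 and 41 fragments, had no GATA motif within 50 bp but had one within 100 bp. The first of these held CAGCTG and the second the E-box CATCTG.

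Csf2rb has a near copy in reverse orientation, Csf2rb2, a mouse beta chain used by interleukin 3 alone, so that reads from one can match the other. Words of 31 bases over each summit were therefore looked for in the rest of the genome. Of those over the summit of the upstream peak 74.0% had a second place, against 22.1% at the start, 51.9% in intron 1 and 0% at the peak of highest fold. At the other 16 receptor peaks the share over the summit was 0%. The second places of the upstream peak spanned a peak of Csf2rb2 at 78142917 to 78143201, whose fold was 11.997 (9.09 to 15.6) and whose summit lay 7.01 kb upstream of the start of Csf2rb2. No peak lay at the second places of the other repeated Csf2rb summits. How reads with 2 places were shared between the copies was not tested, and the separate heights of Csf2rb -7.0 kb and its counterpart are uncertain.

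The 121 bases centred on the upstream Csf2rb summit and their counterpart at Csf2rb2 matched at 119 positions. Both are given here, with CAGCTG and GATA motifs in capitals. The GATA motif lies just outside the window of 50 bp used for the counts at Csf2rb.
Csf2rb, chr15:78149320-78149440, plus strand: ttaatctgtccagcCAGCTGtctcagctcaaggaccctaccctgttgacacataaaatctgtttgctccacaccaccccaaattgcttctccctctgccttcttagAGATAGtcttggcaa
Csf2rb2, chr15:78143020-78143140, minus strand: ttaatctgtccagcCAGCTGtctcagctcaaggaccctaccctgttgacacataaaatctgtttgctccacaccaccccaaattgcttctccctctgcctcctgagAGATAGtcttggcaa

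Flt3, a receptor of early multipotent and dendritic progenitors, had a single peak of high fold. Flt3 (ENSMUSG00000042817.9) spans 148142317 to 148212065 of chromosome 5, on the minus strand. The peak at 148200002 to 148200384 lay in intron 1 of 24, 11.7 kb downstream of the nearest start. Its fold was 29.99 (25.2 to 35.4), from 139 fragments on a background of 3.67, above 85.0% of all peaks. Its window held 2 GATA motifs, one within the composite and one nearer the edge of the window. It also held 2 E-boxes, both CATCTG on the gene's strand. Pan3, the next protein-coding gene, encodes a subunit of a deadenylase, and its nearest start was 42.0 kb away. With the starts of lincRNA and processed-transcript genes included, the peak was nearest to one of those, and Flt3 had 0 peaks.

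Csf1r, the macrophage colony-stimulating factor receptor, also had a single peak, and it was close to the list median. Csf1r (ENSMUSG00000024621.8) spans 61265226 to 61291803 of chromosome 18, on the plus strand. The summit of the peak at 61267226 to 61267765 lay in intron 2 of 21, 1957 bp downstream of the nearest start. Its fold was 9.98 (7.91 to 12.4), from 77 fragments. Its local background, 6.81 fragments, was the highest of the 20 peaks, and 90.3% of all peaks had a lower one. By fragments the peak lay above 66.2% of the list and by fold above 43.4%. Its window held 1 GATA motif, AGATAA. Pdgfrb, another receptor tyrosine kinase gene and the next start, 62.6 kb away, had no peak of its own.

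Across all 20 peaks the fold ranged from 7.26 to 58.3. The median was 12.3 (95% confidence interval from ranks 9.21 to 18.6), beside 11.1 for the whole list, whose quartiles were 7.84 and 20.1. That interval takes the peaks as independent, which peaks of a locus are not. It covers no spread between genes or between libraries. With lincRNA and processed-transcript starts included, the receptor median was 10.8, below that of the list. A fold of at least 10 was found for 12 of the 20 peaks and for 56.6% of all peaks. Above the upper quartile of the list were 5 peaks. These 5 were Csf3r -126.6 kb, Epor +0.9 kb, Csf3r -128.9 kb, Kit -114.2 kb and Flt3 +11.7 kb. With the local background held fixed, the lowest lower bound among them was 25.2. The highest upper bound among the other 15 was 23.0. Csf3r -126.6 kb was above the other 4 of these, whose intervals overlapped. The median width was 439.5 bp, beside 397 bp for the list, and the median local background was 3.67 fragments in both.

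**Figure D2:**
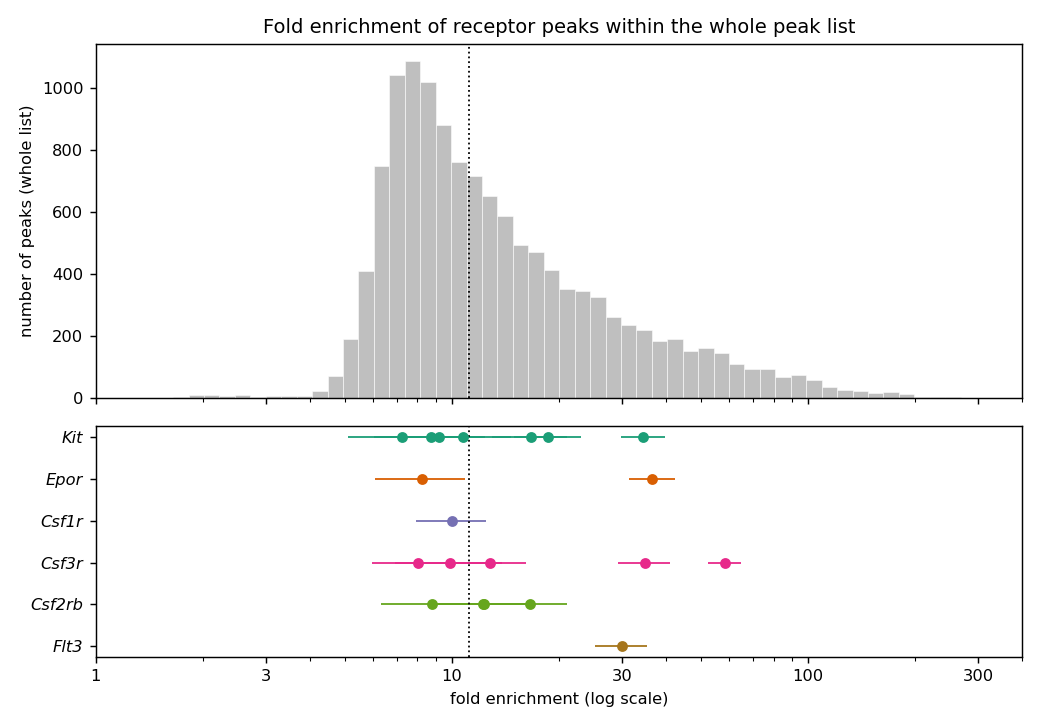
Fold enrichment of receptor peaks within the list. The upper panel counts all 12885 peaks by fold (x, log scale), and the lower panel shows each receptor peak in the row of its gene with its 95% Poisson interval. The dotted line is the list median of 11.1. Kit, Epor, Csf3r and Flt3 each have a peak with a fold of at least 29.99, and Csf1r and Csf2rb have none.

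By the fold of its strongest peak, with no limit on distance, Csf3r was above 90.2% of the genes with a peak. Epor was above 80.9%, Kit above 79.4% and Flt3 above 75.9%. Csf2rb was above 55.6% and Csf1r above 31.5%. Of peaks within 50 kb of the nearest start, the strongest had a fold of 9.90 for Csf3r and 9.21 for Kit. Both were below 9.98 for Csf1r and 16.5 for Csf2rb. The intervals of Csf3r, Kit and Csf1r overlapped, so these genes cannot be put in order by it. That of Csf3r also overlapped that of Csf2rb. By number of peaks with no limit on distance, Kit was first and Flt3 and Csf1r last. Of the peaks within 50 kb of their nearest start, Csf2rb had the most, with 4. Only that at +26.1 kb had no repeated words over its summit, while Kit and Epor had 2 each without such words. The first place of Csf2rb thus rests on its repeated summits. The strongest summit held 39.4% of the fragments summed over the summits of Kit, 55.0% for Csf3r and 32.8% for Csf2rb.

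**Figure D3:**
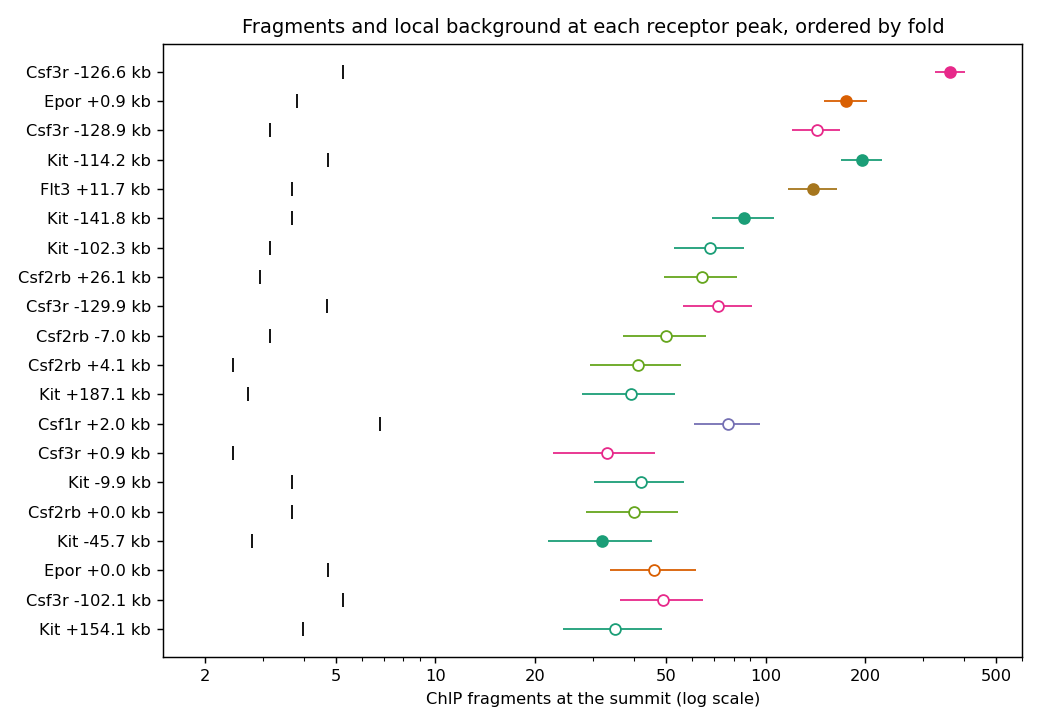
ChIP fragments at the 20 receptor summits, ordered by fold. Points give the fragments (x, log scale) with 95% Poisson intervals, and black ticks the local background in fragments. Filled points have the CTG and GATA composite within 50 bp of the summit, open points do not. Of the 6 peaks with the composite, 5 are among the 6 of highest fold.

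Receptor peaks lay both at starts and far from them. Within 1 kb of a protein-coding start lay 4 of the 20 summits, beside 6.52% of all peaks, and within 5 kb lay 6 of the 20, beside 17.9%. The 4 came from 3 genes. They were the adjacent pair of Epor, the exon 1 summit of Csf2rb and the Csf3r summit near an internal start. Outside protein-coding genes lay 12 summits, of which the 3 of Csf3r above were within the noncoding transcript. There were 6 in introns of the receptor gene, and none in a coding exon. More than 100 kb from the nearest start lay 9 summits, all of Kit and Csf3r. Shares of all peaks outside genes, in introns, in coding exons or beyond 100 kb were not counted. These counts therefore describe the receptor peaks only. The median distance was 35.9 kb, beside 28.4 kb for all peaks. Another summit lay within 5 kb for 7 of the 20, beside 20.9% of all peaks. These 7 belonged to Epor, Csf3r and Csf2rb.

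Sequence motifs were then counted within 50 bp of the summit, on both strands. The GATA motif was in 14 of the 20 windows, 70% (Wilson 95% confidence interval 48.1% to 85.5%), beside 73.2% of all peaks and 17.8% of windows 1 kb from the summits of all peaks. The composite was in 6, 30% (14.5% to 51.9%), beside 32.9% and 3.07%. It contains GATA and so overlaps the GATA motif in 5 of the 6 windows. The E-box CANNTG was in 9, beside 52.6% of all peaks, and its variant CAGCTG in 3, beside 14.1%. The Ets core AGGAAG was in 5, beside 28.5%, and the RUNX core TGTGGT in 1, beside 9.56%. For each of these motifs, the share in all peaks lay within the interval of the receptor peaks. These intervals take the windows as independent, which windows of a locus are not, so they are descriptions and not tests.

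The letters CCNCNCCC were in 7 of the 20 windows, 35% (18.1% to 56.7%), beside 11.6% of all peaks and 9.06% of windows 1 kb away. Those windows were both of Epor, Kit -102.3 kb, Csf2rb +4.1 kb and those of Csf3r at -128.9, -102.1 and +0.9 kb. They came from 4 genes and are not independent. Among them were 3 of the 4 summits within 1 kb of a start. A run of C alone also fits these letters, as in the window of Csf3r +0.9 kb, and no other window or setting was tried for this motif. With 100 bp on each side, GATA was in 95% of the receptor windows and 84.6% of all peaks, and the window without it was that of the stronger Epor peak. A motif match says only that the letters are there.

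**Figure D4:**
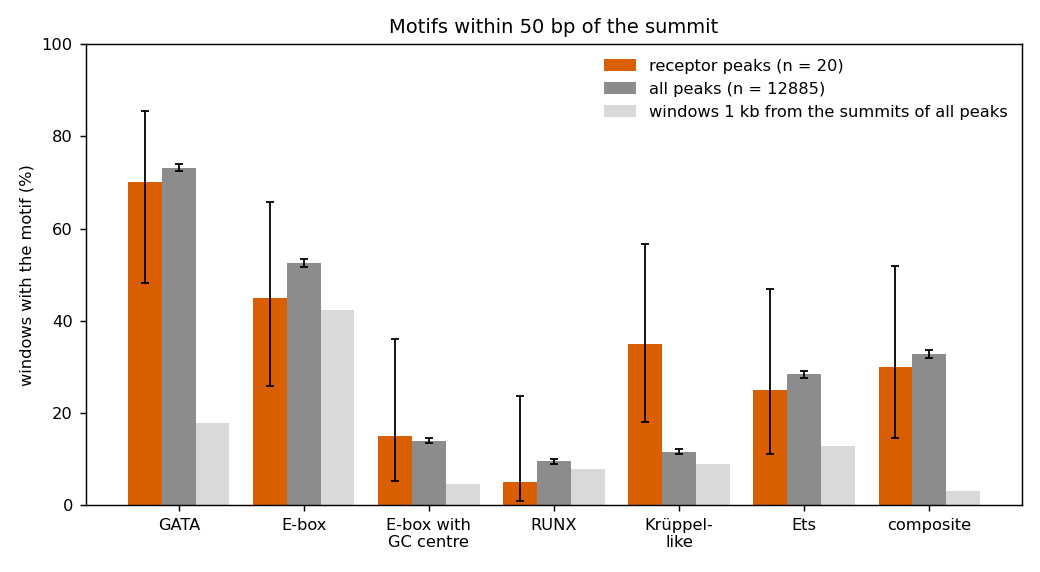
Share of windows with each motif (y, percent) within 50 bp of the summit, for the 20 receptor peaks, all 12885 peaks and windows 1 kb to either side of the summits of all peaks. Bars start at 0, and error bars are Wilson 95% confidence intervals. The share in all peaks lies outside the interval of the receptor peaks for the Krüppel-like motif CCNCNCCC alone, whose 7 windows come from 4 genes. The intervals take the windows as independent, which they are not. Several motifs were compared without correction, so this is not a test.

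Receptor peaks with the composite had folds of 8.71 to 58.3, with a median of 32.2 over 6 peaks. Those without it had folds of 7.26 to 34.7, with a median of 10.4 over 14 peaks. In the whole list the medians were 13.3 with and 10.3 without the composite. Both ranges overlapped, as Csf3r -128.9 kb was strong without it and Kit -45.7 kb weak with 2 of them. For the GATA motif the medians were 11.8 with it and 12.3 without it, beside 12.1 and 9.17 in the whole list. These are descriptions of peaks from 1 pooled list, several of which share a locus.

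The number of peaks nearest to a gene also depends on how far its neighbours are. The genome nearest to a start of Kit was 411.2 kb long, more than for 94.1% of genes, and that of Csf3r 195.0 kb. It was 66.1 kb for Csf1r, 54.2 kb for Flt3, 41.6 kb for Csf2rb and 16.9 kb for Epor, beside a median of 46.5 kb. Over the 6 genes there were 2.55 peaks in 100 kb, beside 0.485 over the genome. The value was 11.9 for Epor, whose 2 peaks merge into 1 within 500 bp. For Csf2rb it was 9.61, with repeated words over every summit except that at +26.1 kb. For Csf3r it was 2.56 and for Kit 1.70. It was 1.85 for Flt3 and 1.51 for Csf1r, each from 1 peak. These values have no interval, since peaks of a locus lie close together and are not independent. At least 5 peaks, as for Kit and Csf3r, were nearest to 2.07% of genes.

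**Figure D5:**
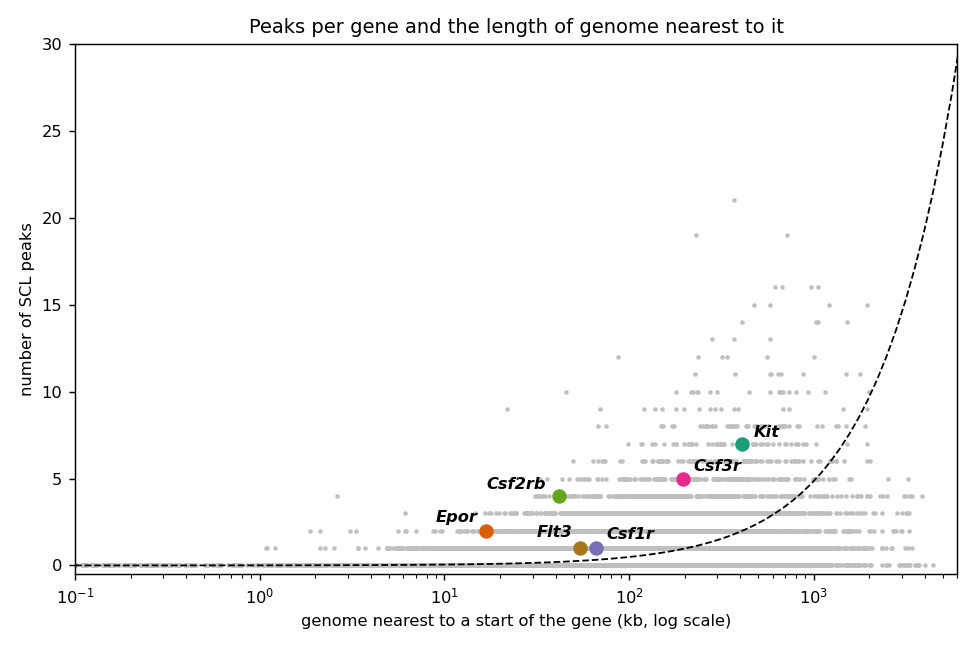
Number of peaks per gene (y) against the length of genome whose nearest protein-coding start is that of the gene (x, kb, log scale). Grey points are all protein-coding genes, and coloured points the receptor genes. The dashed line is the genome-wide 0.485 peaks in 100 kb. A gene with so short a stretch of genome as Epor, Csf2rb, Flt3, Csf1r or Csf3r lies above the line with a single peak, as Csf1r and Flt3 do.

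Peaks at other genes of the same pathways were counted from a list of 45 ligands, receptors and signalling genes. A peak was nearest to 26 of the 45, 57.8%, beside 29.1% of all protein-coding genes. The listed genes were not matched to all genes by the length of genome nearest to them, so these shares are not like for like. By class, 12 of 18 other receptors, 9 of 18 signalling genes and 5 of 9 ligands had one. Those with the most peaks by nearest start, with no limit on distance, were Kdr and Lifr with 10 each, Flt1 with 5, and Tek and Lyn with 4. Within the gene or 10 kb of it Tek had 5, Lyn 4, Flt1 3, Kdr 2 and Lifr 0. Lifr encodes the receptor of leukaemia inhibitory factor and had a strongest fold of 25.2. Flt1 and Tek encode receptors for VEGF and angiopoietin on endothelium, with strongest folds of 137.3 and 42.6. Lyn encodes a kinase of the Src family that acts below several of these receptors, and its strongest fold was 23.6.

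Among the ligands, Flt3l, for FLT3 ligand, had 1 peak, at -1.14 kb from its start, with a fold of 84.8 (77.4 to 92.6). Kitl, for stem cell factor, had 2 peaks with a strongest fold of 14.2. The ligand genes Csf2, Il34 and Il3 had 1 peak each, with folds of 9.69, 7.84 and 6.98. Epo, Csf1, Csf3 and Thpo had none. Csf2ra, for the chain that pairs with Csf2rb to bind GM-CSF, had 2 peaks by nearest start. The stronger, 20.7 kb downstream of the start, had a fold of 95.1 (88.1 to 102.4). Within the gene or 10 kb of it Csf2ra had 1 peak. The folds of Flt3l and of the stronger Csf2ra peak were above those of Flt3 and Csf2rb themselves, with intervals that did not overlap. Those of the other ligands were below both strongest folds. The genes of this paragraph were named after their values had been seen.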

How the data were processed

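Per the labels and the methods of the study, paired-end reads were aligned to mm9 with Bowtie 1.1.2, keeping reads with up to 2 places, and duplicates were removed. Peaks were called by the authors with MACS2 2.0.10 on the merged ChIP replicates and set with the irreproducible discovery rate. The deposited fold enrichment is the ratio of ChIP over local background, and the deposited −log10 p and −log10 q are those of MACS2. The deposited score, a multiple of −log10 p, was not used. Positions are given counted from 1. Depth per SCL library is not given in the sources used here.

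The whole number of fragments and the local background at each summit were solved from the deposited fold, with 1 added to both, and p-value. They matched that −log10 p within 0.001 in 99.9% of peaks. Steps were tested on simulated data. Words of 31 bases over each receptor peak were counted in the genome. Starts were the 46028 of protein-coding transcripts in GENCODE vM1 (NCBIM37, the build of mm9). Scripts used Python 3.11.15, numpy 2.4.6, scipy 1.17.1, pandas 2.3.3 and matplotlib 3.10.9.

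All 6 receptors and all their peaks are named. Of the pathway list, the 5 genes with the most peaks and the genes next to a receptor peak are named by rule, and others as stated. The receptors and lists were chosen with earlier results of these data known. All 45 listed genes were found in the annotation. Alternatives changed the starts, the position, the strength limit, the window and the spacing.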

Additional observations from a re-analysis of the deposited data

How the results depend on the processing

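No paired analysis was possible because libraries 1 and 2 were merged before peak calling. Leaving out each replicate was not possible for the same reason. The number of receptor peaks was 20 in the main count, 12 at a fold of at least 10, 9 at a −log10 q of at least 50 and 10 when any peak in the gene or up to 10 kb from it was counted. The last rule left Kit with 1, Csf3r with 1 and Csf2rb with 4. When any peak within 50 kb of a receptor start was counted, also one nearer to another gene, there were 15, of which Csf2rb had 6, Epor 3, Kit and Flt3 2 each, and Csf3r and Csf1r 1 each. At the limit on q, Kit and Csf3r had 3 each, Csf2rb, Epor and Flt3 1 each and Csf1r 0. Merging peaks within 500 bp left 18, with Epor at 1 and Csf3r at 4. With the same limits on strength the peaks in 100 kb were 1.53 and 1.15, beside 0.275 and 0.197 over the genome, since fewer peaks were kept. At a −log10 q of at least 50 the median fold was 29.99, beside 23.9 for all such peaks, and the composite was in 5 of 9, 55.6%, beside 39.4%. The share with GATA was 40% within 25 bp and 95% within 100 bp, beside 48.1% and 84.6% of all peaks, since the window sets how much sequence is read. With lincRNA and processed-transcript starts there were 15 receptor peaks, with none left for Flt3 and 1 for Csf3r. Their median fold was 10.8, below the list median of 11.1. Without the 3 Csf2rb summits with repeated words, a choice made after seeing the data, there were 17 peaks with a median fold of 12.8. Of 48 alternative values of the summaries, 39 stayed within 1.5 times the count or within the interval, and 9 did not. With the counts per gene included, 26 of 104 did not. Leaving out any 1 receptor gene kept the median fold between 11.8 and 12.3. Counting error limits the order of peaks of low fold, whose intervals overlap.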
